A study of Mus musculus with 8 samples.

Results

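RANKL and PRDX1 were compared directly, as single additions to mouse osteoclast precursor cells, to find in which genes the responses to these proteins part and in which they coincide. The comparison rested on 4 of the 8 RNA-seq libraries of the series, 2 of RANKL alone (100 ng/mL) and 2 of PRDX1 alone (200 nM). The 2 libraries of M-CSF alone and the 2 of PRDX1 + RANKL served as references. The precursors were adherent macrophages grown from bone marrow in M-CSF, all 4 groups received 30 ng/mL of M-CSF, and RNA was taken after 2 days. Per the labels, the marrow came from C57BL/6 mice aged 6 to 8 weeks, whereas the culture methods of the study name ICR mice. The PRDX1 added was a recombinant His-tagged protein made in E. coli, with endotoxin removed on a resin according to the methods. Every gene with a mean of at least 0.5 FPKM, that is fragments normalized to transcript length and library size, over the 8 libraries entered the comparison, which left 11700 of the 25124 genes in the table.

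RANKL, a cytokine of the TNF family, binds the receptor RANK on macrophage precursors and, through TRAF adaptors, NF-kB, AP-1 and NFATc1, turns them into osteoclasts, the multinucleated cells that dissolve bone with acid and proteases. PRDX1 is an intracellular peroxidase that removes hydrogen peroxide. Released from cells, it acts as a danger signal, and the study examined it as a ligand of Toll-like receptor 4 (TLR4), the receptor of bacterial lipopolysaccharide. TLR4 also activates NF-kB and, through a second adaptor pathway, interferon genes, so the pathways of RANKL and PRDX1 share components.

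Library totals ran from 27284655 to 46171827 reads, and 3 reads on a transcript of 1 kb corresponded to 0.0650 to 0.110 FPKM. The 10 most abundant genes took 4.75% and 4.84% of the reads on genes in the RANKL libraries and 9.61% and 9.69% in the PRDX1 libraries. On a principal component analysis, the component with the most variance (69.3%) placed the RANKL libraries at 43.5 and 44.2, the combined treatment at 9.53 and 9.79, the PRDX1 libraries at -27.3 and -27.0 and M-CSF alone at -26.5 and -26.3. The next component (20.03%) set PRDX1 alone (11.9 and 12.3) and the combined treatment (17.7 and 18.4) apart from RANKL alone (-9.43 and -8.82) and M-CSF alone (-21.9 and -20.1). The macrophage genes Lyz2 (8326 to 14980 FPKM), Cd68 (577.5 to 856.9 FPKM) and Adgre1 (220.3 to 527.2 FPKM) were high in all 8 libraries, while the lists of T cell, B cell, NK cell, mast cell and erythroid markers had 0 genes above the minimum level.

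RANKL and PRDX1 left the cultures far apart. A gene was called when its Benjamini-Hochberg adjusted p in limma was under 0.05 and the difference on the log2(FPKM + 1) scale corresponded to at least 1.5-fold. By this rule 1677 genes (14.3% of the genes tested) were higher with RANKL and 1255 (10.7%) were higher with PRDX1, together 25.1%. The difference was at least 2-fold in 502 and 600 genes, at least 4-fold in 102 and 126, at least 8-fold in 39 and 40, and at least 16-fold in 9 and 12, each with RANKL before PRDX1. In all 2932 called genes both RANKL libraries lay beyond both PRDX1 libraries, as they did in 81.1% of all genes tested, and with 2 libraries against 2 an exact permutation test of a single gene could not go below p = 0.3333. Nothing in the labels says whether the libraries of a group came from separate animals, so the p-values measure the spread between these libraries. The median of all genes was 0.13 above 0 on the log2 scale, and the balance of calls depended on the scaling. Quantile normalization lowered this median to 0.046 and gave 1231 genes higher with RANKL and 1466 higher with PRDX1, and upper quartile scaling lowered it to 0.030 and gave 1173 and 1518. The share of calls higher with RANKL was thus 57.2% as deposited, 45.6% and 43.6%.

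**Figure D1:**
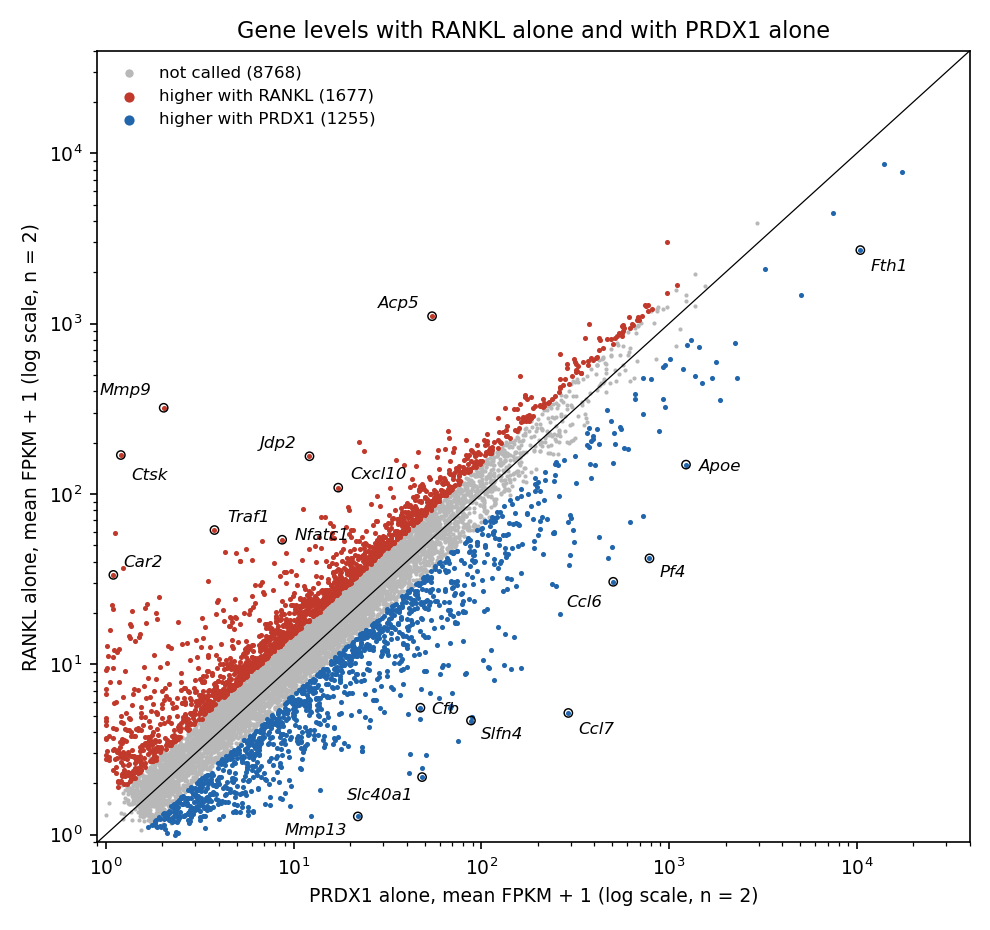
Mean FPKM + 1 of each of the 11700 genes tested in the 2 libraries of PRDX1 alone (horizontal axis) and the 2 libraries of RANKL alone (vertical axis), both on log scales, with called genes in red (1677, higher with RANKL) and blue (1255, higher with PRDX1) and the line of equal levels in black. Osteoclast genes such as Ctsk and Mmp9 stand high at the left, and chemokine genes such as Ccl7 and Ccl6 lie far below the line at the right.

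The largest differences in favor of RANKL included genes of the mature osteoclast. Mmp9, the gelatinase of osteoclasts, stood at 293.9 and 345.4 FPKM in the RANKL libraries and at 0.929 and 1.14 FPKM in the PRDX1 libraries, a log2 difference of 7.30 (SE 0.10, adjusted p = 2.67e-11). Ctsk, the collagen-degrading cathepsin K, had 169.2 and 167.4 FPKM against 0.081 and 0.324 FPKM, a log2 difference of 7.14 (SE 0.099). With M-CSF alone Ctsk had 0.043 and 0.122 FPKM, and the log2 difference of PRDX1 from it, 0.15, was not called. Acp5, the tartrate-resistant acid phosphatase used to stain osteoclasts, had 1073 and 1137 FPKM with RANKL and 53.9 and 53.5 FPKM with PRDX1 (log2 difference 4.34), and here PRDX1 itself rose above the 24.2 and 23.1 FPKM of M-CSF alone (log2 difference 1.15, called). Other large differences were those of Slc9b2, a sodium-proton antiporter (log2 difference 5.71), Car2, the carbonic anhydrase that supplies protons (4.93), Ocstamp, a fusion protein (4.90), Slc6a4, the serotonin transporter (4.37), and Dmkn, which encodes dermokine (4.27). They stood at 20.1 to 60.6 FPKM in the RANKL libraries and at 0 to 0.276 FPKM in the PRDX1 libraries, where single libraries held 0 to 19 reads, so these differences depend on the pseudocount. The 15 largest differences also included Traf1, a TRAF adaptor (4.02), Spns2, a sphingosine-1-phosphate exporter (3.92), Scin, an actin-severing protein (3.88), Jdp2, an AP-1 partner (3.77), Itgb3 (3.77) and Gpr132, a G protein-coupled receptor (3.69).

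The largest differences in favor of PRDX1 included chemokine, immune receptor and Schlafen genes. Ccl7, a monocyte chemoattractant, stood at 3.88 and 4.48 FPKM with RANKL and at 305.6 and 274.1 FPKM with PRDX1, a log2 difference of -5.81 (SE 0.094, adjusted p = 4.00e-11). M-CSF alone lay between them at 68.3 and 82.0 FPKM, so that RANKL was below it and PRDX1 above it. Slc40a1, the iron exporter ferroportin, had 1.15 and 1.20 FPKM against 47.0 and 47.7 FPKM (log2 difference -4.47), and there PRDX1 did not pass the test against M-CSF alone (60.4 and 57.6 FPKM). Slfn4, a Schlafen gene, showed the other pattern, with 3.28 and 4.08 FPKM with RANKL and 2.19 and 3.25 FPKM with M-CSF alone against 96.3 and 78.0 FPKM with PRDX1 (log2 difference -4.23). Its neighbor Slfn1 had 1.55 and 2.34 FPKM against 51.8 and 47.5 FPKM (log2 difference -4.11). Ccl4 (log2 difference -4.44), Ccl6 (-4.05) and Ccl12 (-3.84) are further chemokines, Ch25h (-4.30) makes 25-hydroxycholesterol, Pf4 (-4.23) is platelet factor 4, and Rgs1 (-4.20) shortens G protein signals. The Fc receptor-like gene Fcrls (-4.15), the high-affinity IgG receptor gene Fcgr1 (-4.11), the collagenase gene Mmp13 (-4.10), the sialic acid receptor gene Siglec1 (-3.94) and the growth factor gene Igf1 (-3.85) completed the 15. Matrix metalloproteinases thus lay on opposite sides, since Mmp13, unlike Mmp9, stood at 0.330 and 0.228 FPKM with RANKL and at 23.3 and 18.7 FPKM with PRDX1.

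**Figure D2:**
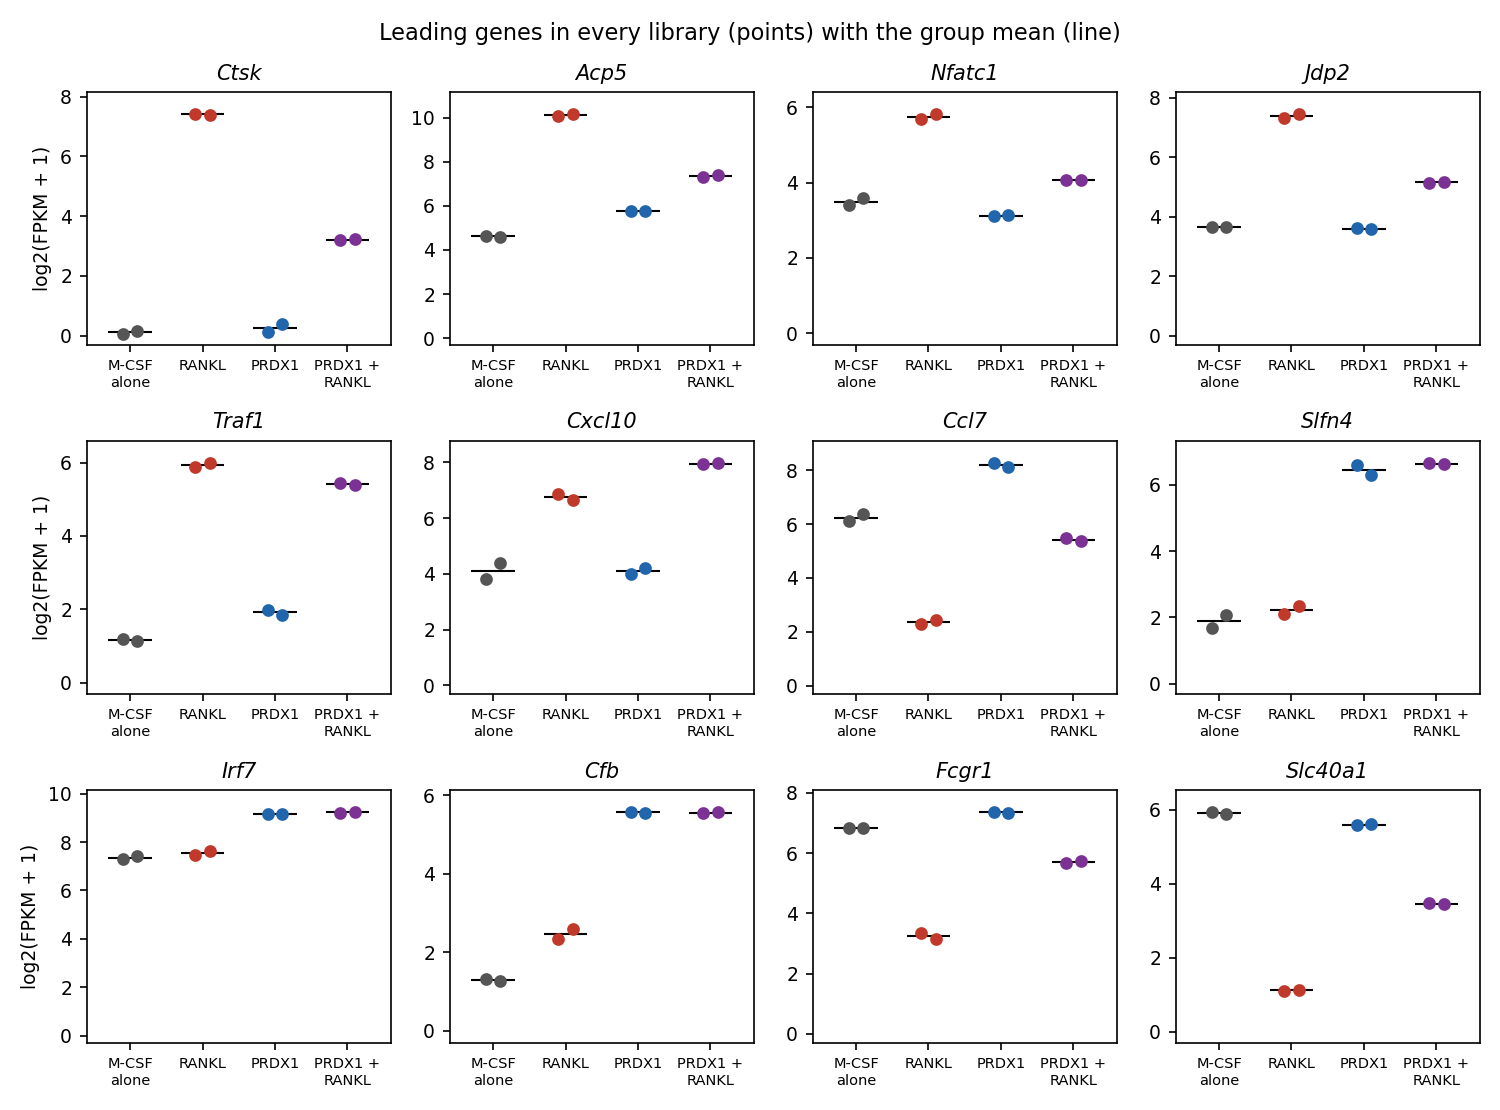
Expression as log2(FPKM + 1) of 12 genes in each of the 8 libraries, as points, with a line at the mean of the 2 libraries of each group. In Ctsk, Acp5, Nfatc1, Jdp2 and Traf1 the RANKL libraries are the highest, in Ccl7, Fcgr1 and Slc40a1 they are the lowest, and in Slfn4, Irf7 and Cfb the PRDX1 and combined libraries lie together.

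Promoters of 6 of these genes are shown to place the sequence in front of genes that parted most widely, the 3 with the largest difference in each direction that had a RefSeq promoter matching the start of the transcript in the table and at least 1 of the motifs searched. Each line gives the 250 bases before the transcript start, 5′ to 3′ on the gene's strand, with matches to the motifs in capitals. Build GRCm38.p6 (mm10) positions are chr3:95498960-95499209 (+ strand) for Ctsk, chr11:76998347-76998596 (+) for Slc6a4, chr9:22130599-22130848 (- strand) for Acp5, chr19:34475149-34475398 (-) for Ch25h, chr11:83174936-83175185 (+) for Slfn4 and chr5:90772185-90772434 (+) for Pf4.
Ctsk: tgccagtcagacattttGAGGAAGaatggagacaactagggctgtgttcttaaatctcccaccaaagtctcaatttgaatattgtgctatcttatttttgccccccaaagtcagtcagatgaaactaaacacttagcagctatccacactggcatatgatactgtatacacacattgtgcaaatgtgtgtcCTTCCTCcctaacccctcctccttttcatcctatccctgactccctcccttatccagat
Slc6a4: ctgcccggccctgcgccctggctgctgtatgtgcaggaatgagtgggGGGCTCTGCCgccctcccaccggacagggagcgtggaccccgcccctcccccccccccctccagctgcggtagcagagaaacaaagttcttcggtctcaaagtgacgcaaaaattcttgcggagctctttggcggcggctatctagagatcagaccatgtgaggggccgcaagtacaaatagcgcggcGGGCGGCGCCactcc
Acp5: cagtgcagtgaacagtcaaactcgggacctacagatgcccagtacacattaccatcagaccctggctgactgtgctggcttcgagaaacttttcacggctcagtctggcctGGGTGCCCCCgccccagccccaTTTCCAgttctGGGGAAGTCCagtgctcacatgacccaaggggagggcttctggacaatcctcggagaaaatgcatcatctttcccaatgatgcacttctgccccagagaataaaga
Ch25h: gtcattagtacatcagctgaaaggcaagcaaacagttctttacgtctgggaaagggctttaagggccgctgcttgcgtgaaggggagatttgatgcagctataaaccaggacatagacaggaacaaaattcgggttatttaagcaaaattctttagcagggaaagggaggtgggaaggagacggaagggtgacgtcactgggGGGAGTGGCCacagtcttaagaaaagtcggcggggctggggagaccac
Slfn4: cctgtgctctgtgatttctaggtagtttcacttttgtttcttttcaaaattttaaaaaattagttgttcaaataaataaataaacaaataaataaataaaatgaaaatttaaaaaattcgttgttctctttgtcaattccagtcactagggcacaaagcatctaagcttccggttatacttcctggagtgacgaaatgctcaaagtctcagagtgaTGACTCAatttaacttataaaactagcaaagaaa
Pf4: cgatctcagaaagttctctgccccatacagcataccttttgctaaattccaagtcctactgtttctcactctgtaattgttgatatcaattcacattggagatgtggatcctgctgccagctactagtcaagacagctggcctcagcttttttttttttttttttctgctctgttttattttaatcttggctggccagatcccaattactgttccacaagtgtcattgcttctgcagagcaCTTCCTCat

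In Ctsk the capitals mark the PU.1 motif GAGGAAG, 233 and 59 bases before the start. In Slc6a4 they mark the loose NF-kB motif (GGG followed after 5 bases by CC) at 203 and 15 bases, and in Acp5 they mark that motif at 139 and 106 bases and the NFAT motif TGGAAA at 117 bases. In Ch25h they mark the NF-kB motif at 48 bases, in Slfn4 the AP-1 motif TGANTCA at 34 bases, and in Pf4 the PU.1 motif at 9 bases. Promoters could be matched for 8899 of the 11700 genes (76.1%), and the motifs were counted on both strands of these 250 bases. The interferon-response motif, read here as GAAA followed after 2 bases by GAAA, was in 2.80% of the promoters of genes higher with RANKL, 6.40% of those higher with PRDX1 and 2.62% of the others, against 3.03% of all. TGANTCA was in 5.04%, 7.59% and 3.81% of the same groups, against 4.37% of all, and GAGGAAG in 128 of 1251, 138 of 922 and 719 of 6726, against 11.1% of all. The loose NF-kB motif was in 63.5%, 60.3% and 61.5% (61.7% of all), TGGAAA in 16.1%, 17.1% and 14.3% (14.8% of all), and the E-box CACGTG in 8.31%, 7.70% and 8.73% (8.56% of all). The rarer motifs were AAGGTCA, bound by estrogen-related receptors, in 3.68%, 3.47% and 2.56% (2.81% of all) and TCACNCCAC, a sterol-response motif, in 0.799%, 0.976% and 0.981% (0.955% of all). These shares describe letters in a window and were not tested.

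Genes of bone resorption were higher with RANKL as a group. Of 15 members tested, 10 were higher with RANKL and 1 with PRDX1, with a median log2 difference of 2.32 against 0.13 over all genes. Beside Mmp9, Ctsk, Acp5 and Car2 the 10 included Itgb3, the beta chain of the vitronectin receptor, at 20.6 and 22.8 FPKM with RANKL and 0.714 and 0.610 FPKM with PRDX1. PRDX1 was also below the 1.81 and 1.95 FPKM of M-CSF alone in Itgb3, which therefore fell with PRDX1 and rose with RANKL. In 4 members PRDX1 was called above M-CSF alone, in the same direction as RANKL. Mmp14, a membrane-anchored protease, had 69.3 and 75.8 FPKM with RANKL, 13.1 and 14.3 FPKM with PRDX1 and 1.02 and 0.771 FPKM with M-CSF alone. Src, the kinase of the ruffled border, had 37.6 and 41.3, 4.13 and 4.19, and 0.698 and 0.798 FPKM in the same order, and Atp6v0d2 and Acp5 were the others. Plekhm1, a lysosome trafficking gene, was the member higher with PRDX1 (15.5 and 16.1 FPKM with RANKL, 26.6 and 26.6 FPKM with PRDX1), and Tcirg1, which encodes the a3 subunit of the osteoclast proton pump, was at 220.5 and 245.8 FPKM with RANKL and 225.6 and 219.3 FPKM with PRDX1 (log2 difference 0.07, -0.05 with upper quartile scaling, 95% interval -0.06 to 0.19).

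The proton pump itself differed in some subunits. Of 17 V-ATPase genes tested, 5 were higher with RANKL and 1 with PRDX1, with a median of 0.43. Atp6v0d2, the subunit induced in osteoclasts, led with 185.5 and 167.8 FPKM against 24.5 and 21.0 FPKM, followed by Atp6v1b2 (log2 difference 1.16) and Atp6v1d (1.12), which encode subunits of the catalytic head. Atp6v0a1, a subunit found in many cell types, went the other way, with 15.6 and 15.6 FPKM with RANKL and 60.6 and 60.6 FPKM with PRDX1 (-1.89).

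Fusion genes split. Of 13 tested, 5 were higher with RANKL and 3 with PRDX1, and the median was 0.02, which became -0.08 with quantile normalization and -0.10 with upper quartile scaling. Dcstamp, a membrane protein needed for precursor fusion, had 47.2 and 41.4 FPKM with RANKL, 4.42 and 3.49 FPKM with PRDX1 and 1.72 and 1.55 FPKM with M-CSF alone, so that it rose with PRDX1 too (log2 difference 0.91), though less (RANKL against PRDX1 3.19, SE 0.10). Siglec15 (3.41), an immunoreceptor of osteoclasts, Dock5 (2.97), a Rac activator, and Cd200 (2.22) were the other members higher with RANKL beside Ocstamp. Cd200r1, the receptor of CD200, was higher with PRDX1, at 9.74 and 8.10 FPKM with RANKL and 62.9 and 60.2 FPKM with PRDX1. CD200 and its receptor were thus on opposite sides, and Adam8, a metalloprotease (-1.32), and P2rx7, a purine receptor (-0.82), were also higher with PRDX1.

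Most of the listed transcription factors that drive osteoclast formation were higher with RANKL, and most of those that restrain it were higher with PRDX1. Of 16 driving factors tested, 10 were higher with RANKL and 1 with PRDX1 (median 1.11). Of 9 repressors tested, 0 were higher with RANKL and 7 with PRDX1 (median -1.53). Nfatc1, the master regulator of the osteoclast program, had 50.3 and 55.4 FPKM with RANKL and 7.64 and 7.76 FPKM with PRDX1, against 9.54 and 11.1 FPKM with M-CSF alone, where the PRDX1 difference of -0.37 was not called. Fos had 117.4 and 127.1 FPKM with RANKL, 44.5 and 38.8 FPKM with PRDX1 and 13.8 and 13.8 FPKM with M-CSF alone, so it rose with both, by log2 3.06 and 1.52. Junb followed the same order (152 and 173.9, 58.5 and 56.0, and 24.7 and 24.1 FPKM), while Jun, its relative, was lower with RANKL (24.99 and 27.3 FPKM) than with PRDX1 (53.8 and 51.3 FPKM). Prdm1 (2.26), which encodes the repressor Blimp-1, Fosl2 (1.97), Relb (1.33), Myc (0.90) and Spi1 (0.68), which encodes PU.1, were higher with RANKL, as were Jdp2 and Nfkb2. Among repressors, Irf8, which holds precursors in the macrophage state, had 7.77 and 7.72 FPKM with RANKL and 59.5 and 59.4 FPKM with PRDX1 (log2 difference -2.79, SE 0.055). The Id genes, inhibitors of helix-loop-helix factors, rose with PRDX1, and Id1 also fell with RANKL. Id1 had 8.36 and 8.96 FPKM with RANKL, 105.7 and 110.3 FPKM with PRDX1 and 21.6 and 23.7 FPKM with M-CSF alone, and Id2 (63.1 and 59.3, 215.1 and 192.5, and 52.7 and 58.6 FPKM) and Id3 (-1.66) were the others. Nr4a1 (-1.17) and Bcl6 (-0.65) were also higher with PRDX1, and under quantile or upper quartile scaling all 9 repressors were called higher with PRDX1.

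Receptor and adaptor genes of the RANK pathway showed no common direction, with 3 of 17 higher with RANKL, 6 with PRDX1 and a median of -0.01. Tnfrsf11a, which encodes RANK, was higher with RANKL (59.4 and 58.1 FPKM) than with PRDX1 (35.0 and 34.0 FPKM), by log2 0.75, as were the ITAM-linked receptor gene Oscar (8.88 and 11.4 FPKM against 0.035 and 0.031 FPKM, with 2 reads in each PRDX1 library) and Traf3 (1.32). Trem2, another ITAM-linked receptor gene, was lower with RANKL (189.3 and 202.4 FPKM) than with PRDX1 (513.7 and 518.2 FPKM), as were Vav3 (-0.96), the M-CSF receptor gene Csf1r (-0.89), Gab2 (-0.85), Fcer1g (-0.77) and Tec (-0.61). Coupling factors secreted by osteoclasts had 5 of 13 genes tested, of which Sema4d, a semaphorin (1.21), and Sphk1 (1.05) were higher with RANKL. Among 12 integrins, Itgb3 and Itga4 (0.72) were higher with RANKL and Itgb5 (-1.42), Itga6 (-1.32), Itgal (-0.93) and Itgax (-0.67) with PRDX1, so the RANKL cultures had the beta-3 and the PRDX1 cultures the beta-5 chain of the vitronectin receptors at the higher level of the compared groups.

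Genes of mitochondrial energy metabolism that were called lay on the RANKL side, in most of the citric acid cycle and in part of the respiratory chain and the mitochondrial ribosome. Of 22 genes of the citric acid cycle and pyruvate dehydrogenase, 19 were higher with RANKL and 0 with PRDX1 (median 0.85), and 17 and 0 were under either scaling. Idh3a, a subunit of isocitrate dehydrogenase, had 79.9 and 78.4 FPKM with RANKL and 35.1 and 32.7 FPKM with PRDX1 (log2 difference 1.20), next to Idh3g (1.19), Pdhb (1.15) and Mdh2 (1.03). Of 74 respiratory chain genes 40 were higher with RANKL and 0 with PRDX1 (median 0.61), with 30 after quantile normalization and 25 after upper quartile scaling. Examples were Cox7a1, a cytochrome oxidase subunit (1.16), Atp5g1 and Atp5g3, subunits of ATP synthase (1.08 and 1.03), Uqcrfs1, the Rieske protein (1.07), and Ndufv1 of complex I (1.04). Mitochondrial ribosomal proteins had 28 of 78 higher with RANKL and 0 with PRDX1 (median 0.49), but 16 and 15 under the scalings, led by Mrps6 at 43.0 and 51.0 FPKM against 13.1 and 13.0 FPKM. In these 3 lists together PRDX1 alone was called above M-CSF alone in 1 gene and below it in 0, with list medians of -0.14, -0.14 and -0.06. Ppargc1b, the coactivator PGC-1 beta, had 3.03 and 3.35 FPKM with RANKL and 0.473 and 0.426 FPKM with PRDX1 (1.53). Tfb2m (0.59), a mitochondrial transcription factor, was the other of 12 biogenesis genes called, but it lost its call under both scalings (0.49 and 0.48).

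Protein synthesis genes that were called shared this direction. Of 23 ribosome biogenesis genes 19 were higher with RANKL and 0 with PRDX1 (median 0.83, 16 and 15 called under the scalings), with Dkc1, the pseudouridine synthase dyskerin, at 41.2 and 37.3 FPKM against 14.2 and 13.6 FPKM. Nop16 (33.2 and 34.1 against 15.4 and 14.9 FPKM), Srm, spermidine synthase (1.08), Nhp2 (1.03) and Wdr12 (0.96) followed. Of 75 cytosolic ribosomal protein genes 39 were higher with RANKL and 0 with PRDX1 (median 0.59), a count that came down to 11 after quantile normalization and 15 after upper quartile scaling. Of all 11700 genes tested, 1231 and 1173 were called higher with RANKL under these scalings. Folds of the ribosomal protein genes were close to the threshold, as in Rpl3 (0.85) and Rpl4 (0.80). Many of these genes have processed copies elsewhere in the genome that could take some of their reads. Cell cycle genes had 18 of 33 higher with RANKL and 1 with PRDX1 (median 0.66, 13 and 1 under either scaling). Mki67, a proliferation marker, had 101.7 and 96.9 FPKM with RANKL, 50.6 and 55.4 FPKM with PRDX1 and 101.8 and 91.1 FPKM with M-CSF alone, and Cdc20 (1.22), Bub1b (1.18), Ube2c (1.04) and Cenpa (1.02) were also higher with RANKL. Against M-CSF alone, 10 of the 33 were called lower with PRDX1 and 0 higher, while 1 was called higher and 2 lower with RANKL. Pcna went the other way (234.4 and 218.8 FPKM with RANKL, 366.9 and 360.8 FPKM with PRDX1).

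**Figure D3:**
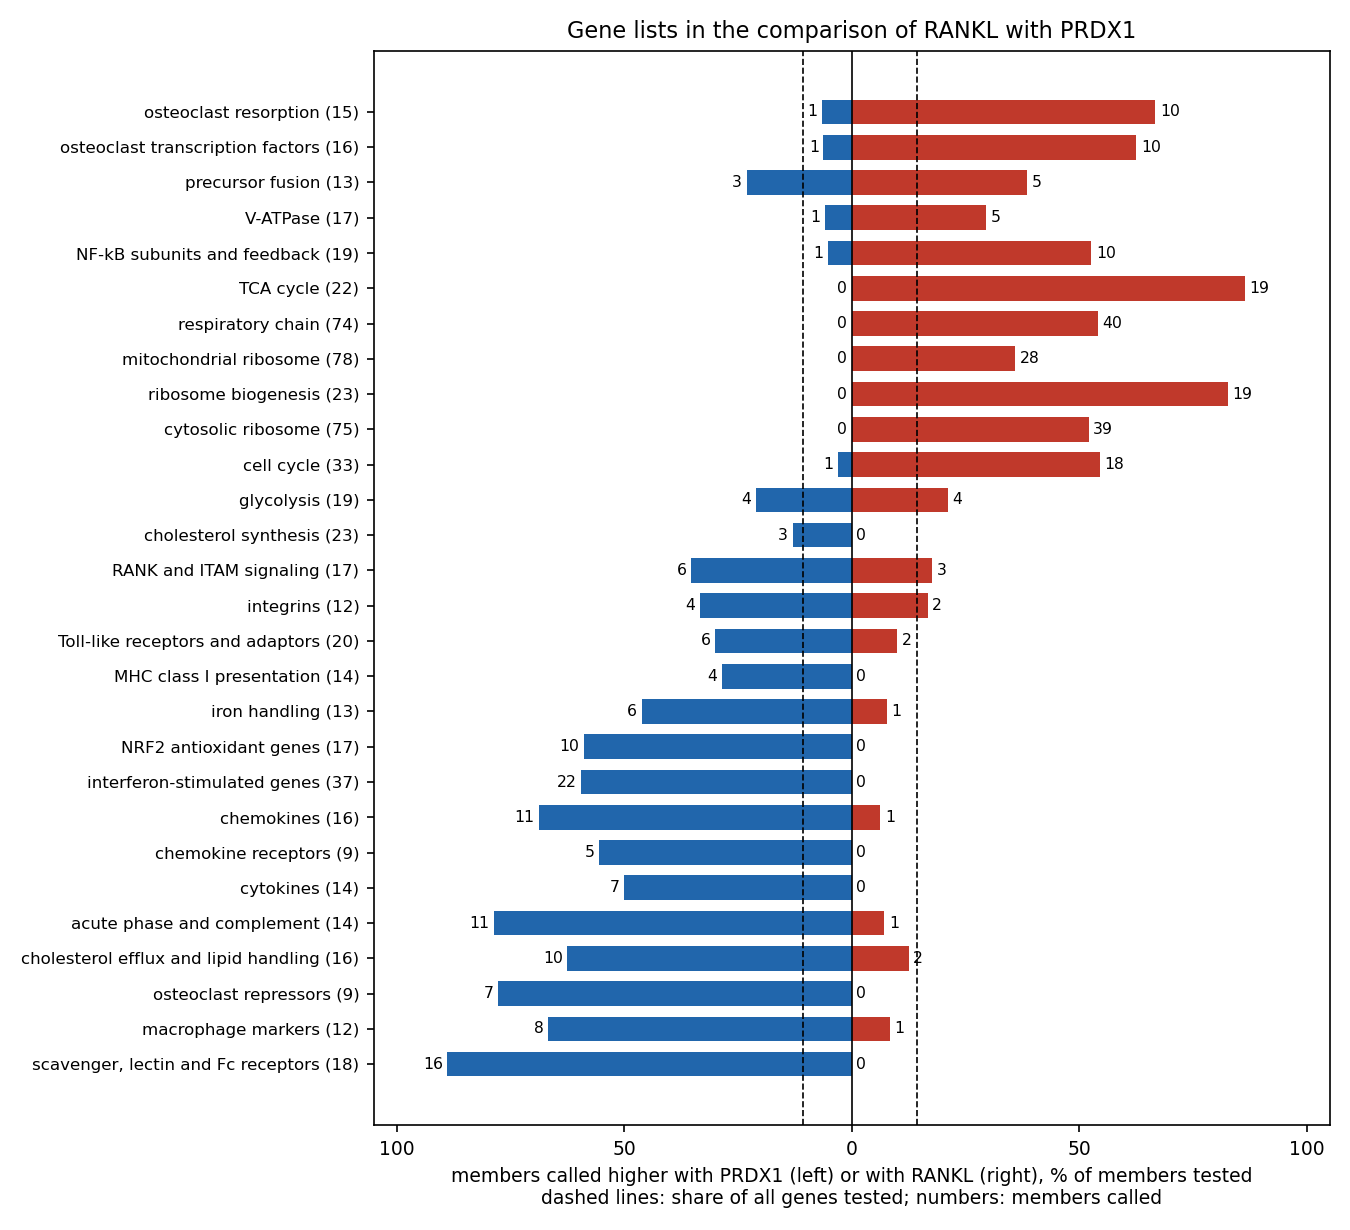
Share of the tested members of 28 gene lists called higher with RANKL (red, right) and higher with PRDX1 (blue, left), in percent, with the number of members called at each bar and the number tested after each name. Dashed lines mark the shares of all genes tested, 14.3% and 10.7%, and the bars of the citric acid cycle (19 of 22) and of scavenger, lectin and Fc receptors (16 of 18) are the longest on their sides.

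The listed interferon-stimulated genes, induced by interferon and active against viruses, were higher with PRDX1 wherever they were called. Of 37 tested, 0 were higher with RANKL and 22 with PRDX1 (median -0.74), and 25 were under either scaling. Cxcl10, counted below with the chemokines, was not in this list and was higher with RANKL. Irf7, the interferon amplifier, had 176 and 194.3 FPKM with RANKL, 570.3 and 576.1 FPKM with PRDX1 and 156.3 and 170.1 FPKM with M-CSF alone (RANKL against PRDX1 -1.63, SE 0.056, adjusted p = 5.26e-09). Mx1, an antiviral GTPase, was lowered by RANKL (4.47 and 3.37 FPKM) and raised by PRDX1 (22.6 and 23.8 FPKM) from 12.8 and 15.1 FPKM in M-CSF alone. Ifi205 (-2.04), Ifit3 (-1.93), Ifit2 (-1.89) and Ifi204 (-1.84) had the next largest differences, and near copies such as Ifit3 and Ifit3b may share reads. Against M-CSF alone, PRDX1 was called higher in 22 of the 37 and lower in 0, and RANKL higher in 3 and lower in 7. Ifnb1, the gene of interferon beta, had 0 to 2 reads in each library and was not tested. Of 15 guanylate-binding proteins and immunity-related GTPases 5 were higher with PRDX1 and 0 with RANKL, with Tgtp1 (-1.11) as the largest. Against M-CSF alone, 7 of these 15 were called higher with RANKL and 7 with PRDX1, and 0 were called lower with either.

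Chemokine genes had 11 of 16 higher with PRDX1 and 1 with RANKL, with a median of -1.89. Ccl2, the main monocyte attractant, had 41.3 and 41.0 FPKM with RANKL, 489.9 and 454.3 FPKM with PRDX1 and 285.7 and 307.1 FPKM with M-CSF alone, so that it fell with RANKL and rose with PRDX1, as Ccl3, Ccl6 and Ccl7 did. Ccl5 was raised by both, to 8.22 and 9.13 FPKM with RANKL and 38.9 and 39.3 FPKM with PRDX1 from 1.80 and 1.96 FPKM. Cxcl10, a T cell attractant, was the exception, with 116.8 and 99.0 FPKM with RANKL, 14.9 and 17.7 FPKM with PRDX1 and 13.3 and 20.1 FPKM with M-CSF alone (RANKL against PRDX1 2.65, SE 0.15). Cxcl10 thus lay on the side opposite to the other 11 called chemokines. Chemokine receptors had 5 of 9 higher with PRDX1 and 0 with RANKL. Cytokine genes had 7 of 14 higher with PRDX1 and 0 with RANKL, among them Tnf (12.9 and 13.6 against 41.8 and 38.3 FPKM), Osm (-1.32), Csf1, which encodes M-CSF (-1.11), Tnfsf9 (-1.04) and Vegfa (-0.84).

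Acute phase and complement genes had 11 of 14 higher with PRDX1 and 1 with RANKL (median -1.12). Cfb, complement factor B, had 4.10 and 5.02 FPKM with RANKL and 46.7 and 46.2 FPKM with PRDX1, against 1.49 and 1.42 FPKM with M-CSF alone. Saa3, serum amyloid A3, had 10.1 and 7.72 FPKM with RANKL, 60.8 and 69.9 FPKM with PRDX1 and 3.99 and 2.33 FPKM with M-CSF alone, so both genes rose with either ligand and further with PRDX1. The subunits of C1q, the recognition protein of the classical pathway, reached the same direction another way. C1qb had 17.6 and 19.9 FPKM with RANKL, 256.9 and 263.4 FPKM with PRDX1 and 319.9 and 310.1 FPKM with M-CSF alone, and C1qa (-3.35) and C1qc (-3.18) likewise fell with RANKL and did not pass the test with PRDX1. C3, the central complement protein, was the member higher with RANKL (23.1 and 24.97 FPKM against 4.91 and 5.06 FPKM). Acod1, which makes itaconate, had 2.37 and 2.76 FPKM with RANKL and 9.49 and 10.4 FPKM with PRDX1 (-1.62), and in its list of 7 metabolite enzymes 3 were higher with PRDX1 and 1, Ptgs1 (0.83), with RANKL. Among 20 Toll-like receptor genes and adaptors 6 were higher with PRDX1 and 2 with RANKL (9 and 1 under either scaling), the 6 being Tlr8 (-2.06), Tlr13 (-1.99), Tlr7 (-1.58), Cd14 (-1.46), Ly96 (-0.86) and Tlr3 (-0.74). Tlr4 itself had 16.7 and 14.2 FPKM with RANKL and 21.2 and 22.1 FPKM with PRDX1 (-0.47), short of the fold required.

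The list of NF-kB subunits and feedback genes, unlike the inflammatory lists above, had more members higher with RANKL. Of 19 subunits and feedback genes 10 were higher with RANKL and 1 with PRDX1 (median 1.04), the same counts as under both scalings. Traf1 had 58.3 and 62.6 FPKM with RANKL, 2.97 and 2.62 FPKM with PRDX1 and 1.29 and 1.21 FPKM with M-CSF alone, and Birc3, an inhibitor of apoptosis, 83.8 and 76.4, 10.6 and 9.94, and 9.89 and 8.09 FPKM. Nfkb2, the precursor of p52 in the alternative pathway, had 66.0 and 78.4 FPKM with RANKL, 12.6 and 13.5 FPKM with PRDX1 and 9.93 and 12.1 FPKM with M-CSF alone, where the PRDX1 difference of 0.23 was not called. Nfkbia, which encodes the inhibitor IkB alpha, rose with both ligands, to 178.5 and 184 FPKM with RANKL and 57.0 and 58.2 FPKM with PRDX1 from 28.0 and 24.7 FPKM. Nfkbie (1.72), Relb (1.33), Tnip1 (1.30), Bcl3 (21.3 and 27.7 against 11.2 and 10.4 FPKM), Nfkbid (1.09) and Tnfaip2 (1.04) completed the 10, and Nfkbiz (-0.69), another IkB protein, was the gene higher with PRDX1. The subunit genes Nfkb1 (0.44) and Rela, with 26.2 and 29.3 FPKM with RANKL and 25.7 and 27.6 FPKM with PRDX1 (0.06, 95% interval -0.09 to 0.20), were not called, and Rela was slightly below 0 under both scalings (-0.05 and -0.06).

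Genes of the resident macrophage were higher with PRDX1, and most of them were below M-CSF alone with RANKL. Of 18 scavenger, lectin and Fc receptors 16 were higher with PRDX1 and 0 with RANKL (median -1.998). Against M-CSF alone 15 were lower with RANKL and 0 higher, and 7 were higher with PRDX1 and 3 lower. Cd36, a receptor for oxidized lipids, had 79.7 and 66.1 FPKM with RANKL, 733.2 and 721.3 FPKM with PRDX1 and 559.8 and 567.9 FPKM with M-CSF alone. Marco, a receptor for bacteria, rose with PRDX1 (9.65 and 8.58, 32.5 and 34.5, and 6.43 and 6.19 FPKM), whereas Mrc1, the mannose receptor, fell with both, from 248.1 and 215.6 FPKM to 22.0 and 18.5 FPKM with RANKL and 103.9 and 109.5 FPKM with PRDX1. Cd5l (-3.27), Mertk (-2.37), Stab1 (-2.33) and Fcgr3 (-2.32) had further large differences. Of 12 macrophage markers 8 were higher with PRDX1 and 1, Spi1, with RANKL (median -1.02). With upper quartile scaling 11 were higher with PRDX1 and 0 with RANKL. The summed level of the list was 10670 and 10290 FPKM with RANKL and 16920 and 17420 FPKM with PRDX1. Most of this sum was Lyz2, which changed direction with quantile normalization (0.20). In bulk RNA fewer cells of a type and less RNA per cell cannot be told apart. Csf1r, Mertk, Fcgr1, Spi1, Cd14, Itgb3, Atp6v0d2 and a few others count in more than 1 list.

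Iron and antioxidant genes that were called were higher with PRDX1, with 1 exception. Fth1 and Ftl1, the ferritin chains, had 2629 and 2773 FPKM and 7673 and 7901 FPKM with RANKL and 10390 and 10520 FPKM and 17850 and 17050 FPKM with PRDX1, although Ftl1 lost its call with quantile normalization (-0.20). Of 13 iron genes 6 were higher with PRDX1, and Steap4, a metal reductase, with RANKL. Of 17 NRF2 antioxidant genes 10 were higher with PRDX1 and 0 with RANKL (median -0.78), with 8 below M-CSF alone in RANKL and 3 above it in PRDX1. Hmox1, heme oxygenase 1, had 50.2 and 59.0 FPKM with RANKL, 421.1 and 422.2 FPKM with PRDX1 and 228.7 and 223.8 FPKM with M-CSF alone. The gene of PRDX1 itself, Prdx1, had 620 and 566.9 FPKM with RANKL, 1779 and 1770 FPKM with PRDX1, 1294 and 1221 FPKM with M-CSF alone and 1231 and 1182 FPKM with both ligands (RANKL against PRDX1 -1.58, SE 0.051, adjusted p = 3.09e-09), and its rise with PRDX1 over M-CSF alone of log2 0.50 was short of the fold required. Gclm (-2.10), Slc7a11 (-1.41), Gclc (-1.30) and Gstm1 (-1.29), genes of glutathione metabolism, were also higher with PRDX1. Of 16 genes of cholesterol efflux and lipid handling 10 were higher with PRDX1 and 2 with RANKL, with Apoe at 134.5 and 160.9 FPKM against 1176 and 1285 FPKM.

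Some markers of other cells moved with these groups, those of neutrophils and stroma at low levels and the megakaryocyte marker Pf4 at a high one. The 9 neutrophil markers, of which 6 were tested, summed to 18.2 and 16.6 FPKM with RANKL, 43.8 and 39.3 FPKM with PRDX1, 12.8 and 8.43 FPKM with M-CSF alone and 38.3 and 34.6 FPKM with both, and S100a9 (-1.60), S100a8 (-0.88), Elane (-0.80) and Mpo (-0.74) were called higher with PRDX1. Stromal markers had 2 of 5 called higher with PRDX1, Col1a2 (-0.95) and Col1a1 (-0.74), and summed to 8.90 and 10.9 FPKM with RANKL and 17.9 and 18.2 FPKM with PRDX1. Of the megakaryocyte markers, Pf4 and Ppbp (-1.01) were higher with PRDX1, and Pf4 at up to 809.7 FPKM is also a gene of macrophages. The list of megakaryocyte markers summed to 43.3 and 39.6 FPKM with RANKL, 811.4 and 764.6 FPKM with PRDX1 and 674 and 591.3 FPKM with M-CSF alone. Against M-CSF alone, 2 were called lower with RANKL and 0 higher with PRDX1. The part of these markers of other cells in the differences of the inflammatory lists was not tested.

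The level of M-CSF alone was nearer to that of PRDX1 than to that of RANKL in most genes that parted. Of the 1677 genes higher with RANKL, M-CSF alone lay nearer to PRDX1 than to RANKL in 87.9%, and of the 1255 genes higher with PRDX1 in 78.6%. On a scale on which the PRDX1 level is 0 and the RANKL level is 1, in log2(FPKM + 1), M-CSF alone had a median position of 0.13 in the genes higher with RANKL and 0.18 in those higher with PRDX1. It lay outside the range of the ligands on the PRDX1 side in 491 and 408 genes, and on the RANKL side in 16 and 78 genes. Against M-CSF alone, RANKL had 1383 genes called higher (11.8%) and 1165 lower (9.96%), and PRDX1 had 445 higher (3.80%) and 233 lower (1.99%). These comparisons share the 2 control libraries and are given side by side for the lists above.

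A set of genes responded to both ligands to about the same extent. Genes were counted here when M-CSF alone differed by the test from the midpoint of the ligand groups (9.44% of genes tested, 4.22% above it and 5.22% below it) and the 95% interval of RANKL against PRDX1 lay within 1.5-fold. There were 87 such genes lower with both ligands (0.744% of genes tested) and 78 higher with both (0.667%). The lowered genes were led by Il1rl1, the IL-33 receptor, which had 4.04 and 3.55 FPKM with M-CSF alone, 0.430 and 0.328 FPKM with RANKL and 0.561 and 0.852 FPKM with PRDX1. Its ligand groups did differ by the test with a pseudocount of 0.1 (-0.74) and with voom on recovered reads (-0.89). Next was Scd1, the stearoyl-CoA desaturase, which had 3.05 and 3.71, 0.607 and 0.449, and 0.449 and 0.364 FPKM. They were followed by Kcnj10, a potassium channel gene, Insig1, a sensor of sterols, Lsp1, a leukocyte actin-binding protein, Atp2a3, a calcium pump, and Fdps and Cyp51, enzymes of the cholesterol pathway. Fdps had 94.6 and 98.7 FPKM with M-CSF alone, 40.4 and 36.9 FPKM with RANKL, 40.0 and 38.9 FPKM with PRDX1 and 27.8 and 26.4 FPKM with both ligands, the lowest of the 4 groups. Of 23 cholesterol synthesis genes, 18 were called lower than M-CSF alone with RANKL and 16 with PRDX1, 0 were called higher with either, and between the ligands 3 were lower with RANKL, Fdft1 (-1.13), Tm7sf2 (-0.68) and Dhcr7 (-0.67). Of 10 fatty acid synthesis genes 5 were lower with RANKL and 6 with PRDX1, with Scd2 at 49.0 and 60.1 FPKM with M-CSF alone, 14.1 and 15.4 FPKM with RANKL and 7.41 and 7.57 FPKM with PRDX1.

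**Figure D4:**
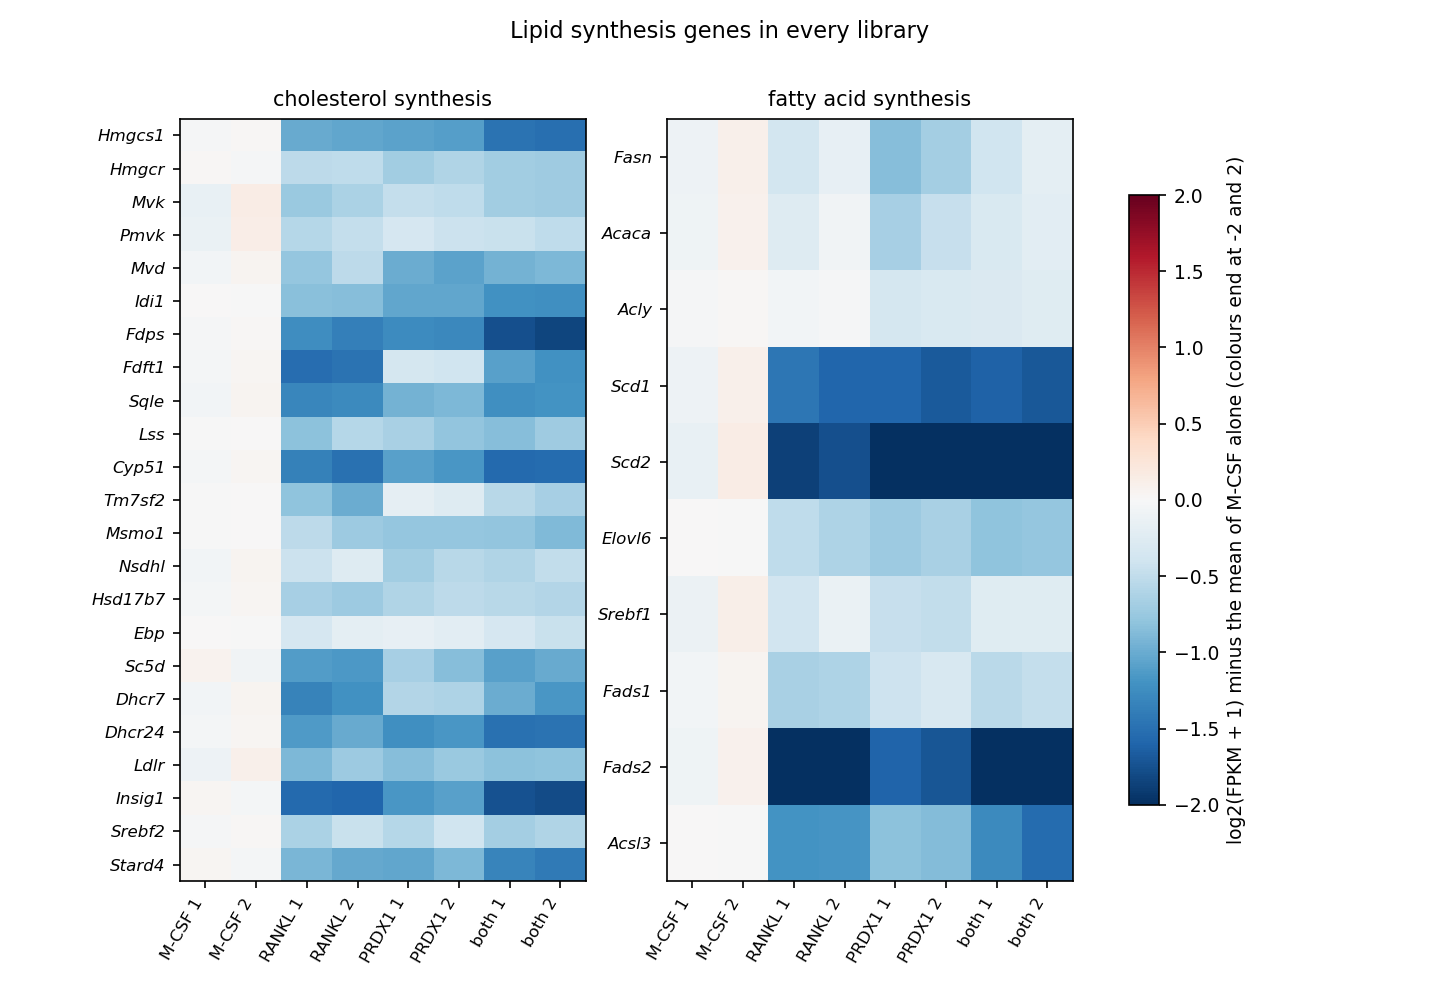
Difference of log2(FPKM + 1) from the mean of the 2 libraries of M-CSF alone for 23 cholesterol synthesis genes and 10 fatty acid synthesis genes (rows) in each of the 8 libraries (columns, 2 per group), with blue for lower and red for higher and colors ending at -2 and 2. Most rows are blue in the RANKL, PRDX1 and combined libraries alike, with Fdft1 and Tm7sf2 paler with PRDX1.

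The genes raised alike were led by Gm5424 and Ass1, argininosuccinate synthase, near-identical copies whose reads cannot be assigned with certainty. Ass1 had 11.4 and 12.2 FPKM with M-CSF alone, 39.1 and 45.4 FPKM with RANKL, 34.3 and 33.5 FPKM with PRDX1 and 83.1 and 87.7 FPKM with both ligands. Slc7a2, an arginine transporter, had 0.924 and 0.764, 2.82 and 2.87, 4.01 and 3.92, and 8.08 and 7.80 FPKM with the groups in that sequence, so that the combined treatment was above either ligand in both genes. Il1rn, the interleukin 1 receptor antagonist, had 9.12 and 9.99, 25.02 and 24.8, 32.1 and 30.9, and 42.1 and 40.0 FPKM in that sequence of groups. Sirpb1c, a signal-regulatory receptor, the small nucleolar RNA gene Snora41, Olfml3, a secreted matrix protein, and Clec4a1, a lectin (35.7 and 31.9, 82.0 and 80.4, 80.9 and 84.1, and 94.9 and 98.8 FPKM), completed the 8.

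When both ligands were present, most genes took an intermediate level. The combined treatment lay between the single ligands in 93.4% of the genes higher with RANKL and 90.8% of those higher with PRDX1, at median positions of 0.48 (quartiles 0.33 and 0.65) and 0.45 (quartiles 0.30 and 0.59) on the scale from PRDX1 (0) to RANKL (1). The distance of the combined treatment from the midpoint, which is independent of the difference between the ligands, was called in 2.32% of all genes, upward in 1.61% and downward in 0.709%. Among the 2932 genes that parted, 70 (2.39%) were called on the RANKL side and 125 (4.26%) on the PRDX1 side. A gene whose ligand levels differ by less than 2.25-fold cannot be 1.5-fold from the midpoint while it lies between them, so sides were also counted by adjusted p alone, a choice made after seeing the data. This gave 406 genes (13.8%) on the RANKL side and 577 (19.7%) on the PRDX1 side, with 200 and 351 when PRDX1 + RANKL replicate 1 was left out and 185 and 295 when replicate 2 was.

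The gene lists took different sides in the combined treatment. Of the 22 interferon-stimulated genes that parted, 20 were on the PRDX1 side by adjusted p and 0 on the RANKL side, with a median position of 0.01 (16 and 17 without each of the combined libraries). Irf7 was at 594.1 and 598.7 FPKM with both ligands, above the 570.3 and 576.1 FPKM of PRDX1 alone, and Slfn4 at 99.4 and 96.9, Slfn1 at 44.1 and 43.5, Cfb at 45.5 and 46.7, and Pdpn, which encodes podoplanin, at 39.9 and 39.8 FPKM were near their levels with PRDX1 alone (87.2, 49.6, 46.4 and 39.7 FPKM on average). Acod1 exceeded it, with 14.8 and 14.8 FPKM. Of 14 MHC class I genes tested 4 parted, H2-T23, H2-D1, Tap1 and B2m, and all 4 were on the PRDX1 side. B2m lost its call between the ligands with quantile normalization (-0.31). The NF-kB list took the RANKL side in 9 of 11 and the PRDX1 side in 1 (8 and 1 without either combined library, median position 0.87). Traf1 was at 42.7 and 40.7 FPKM with both ligands, below its 58.3 and 62.6 FPKM with RANKL alone. Nfkb2 was at 62.4 and 64.5 FPKM with both ligands and 66.0 and 78.4 FPKM with RANKL alone, and Nfkbie at 32.4 and 30.7 FPKM and 27.9 and 30.3 FPKM. Cxcl10 and C3 went beyond RANKL, to 244 and 249.9 FPKM and to 42.3 and 46.7 FPKM, as did Ly6i (10.1 and 11.5 FPKM against 6.16 and 4.80 FPKM with RANKL), and Mefv, which encodes pyrin, was near its RANKL level (17.6 and 18.4 against 18.9 and 19.4 FPKM). Hpgd, which inactivates prostaglandins, was lowest with both ligands (1.25 and 1.38 FPKM, against 2.68 and 3.13 FPKM with RANKL, 10.95 and 11.3 FPKM with PRDX1 and 47.2 and 48.7 FPKM with M-CSF alone).

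Osteoclast genes themselves lay toward the PRDX1 level unevenly. On the same scale M-CSF alone had a median position of -0.07 in the called resorption genes and -0.006 in the called fusion genes. It was at 0.15 in the citric acid cycle and 0.21 in the respiratory chain. In these lists a shift toward PRDX1 and a shift toward M-CSF alone could thus not be told apart. Of 11 resorption genes that parted 7 were on the PRDX1 side and 0 on the RANKL side (median position 0.36), and of 8 fusion genes 7 were on the PRDX1 side and 1 on the RANKL side. Atp6v0d2, at 27.3 and 25.5 FPKM with both ligands, was near its PRDX1 level (position 0.07), Itgb3 at 1.53 and 1.59 FPKM (0.16) and Dcstamp at 7.96 and 7.89 FPKM (0.27) were below the midpoint, and Mmp9 at 27.7 and 29.8 FPKM (0.53), Mmp14 at 32.3 and 34.9 FPKM (0.53) and Src at 14.4 and 14.02 FPKM (0.53) were near the midpoint on the log scale. Among the driving factors Fos at 128.2 and 139 FPKM (1.08), Junb at 132 and 136.2 FPKM (0.81) and Myc at 38.5 and 40.2 FPKM (0.87) kept to the RANKL side, whereas Nfatc1 at 15.6 and 15.7 FPKM (0.36), Fosl2 at 10.2 and 10.1 FPKM (0.17) and Prdm1 at 1.61 and 1.81 FPKM (0.16) were on the PRDX1 side. Members of 1 list thus stood on both sides in the same cultures. The metabolic lists also parted. In the respiratory chain 28 of 40 were on the PRDX1 side and 0 on the RANKL side (12 and 6 when each of the combined libraries was left out), and in the citric acid cycle 12 of 19 and 0 (5 and 5). Cytosolic ribosomal proteins had 12 of 39 on the PRDX1 side and 0 on the RANKL side (4 and 4 on the PRDX1 side without the combined libraries in turn, 2 after quantile normalization and 8 after upper quartile scaling), and mitochondrial ribosomal proteins had 4 and 1 of 28 (1 and 0 without either combined library). Ribosome biogenesis had 6 of 19 on the RANKL side and 0 on the PRDX1 side, but 1 and 0 on the RANKL side without the combined libraries in turn. Cell cycle genes had 2 of 19 on the RANKL side and 0 on the PRDX1 side, with a median position of 0.49 and 0 on either side without either combined library.

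**Figure D5:**
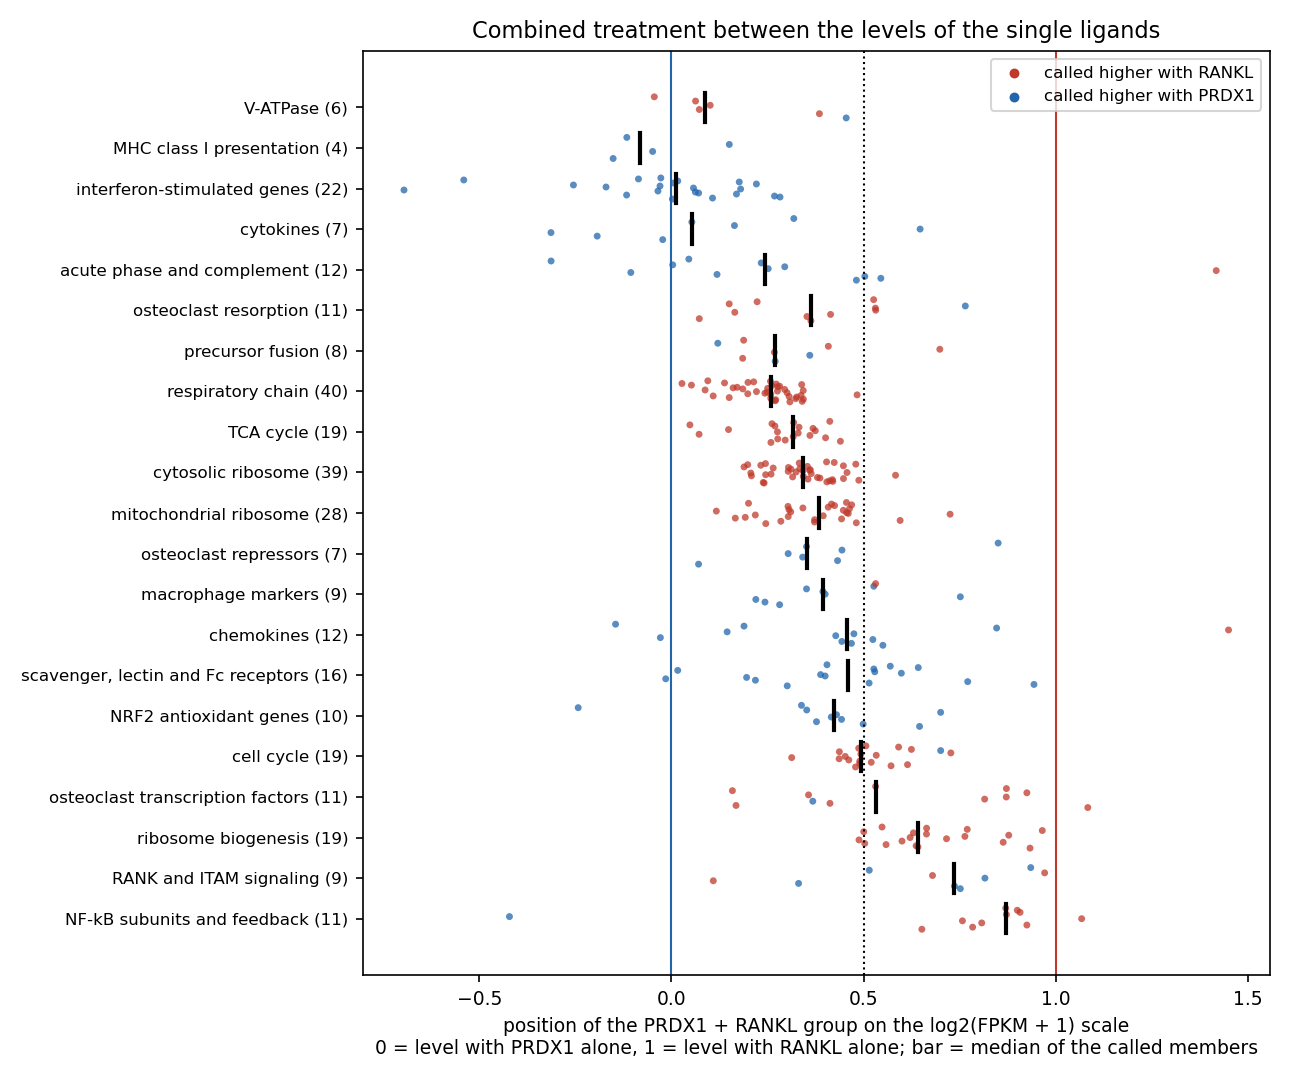
Position of the PRDX1 + RANKL group between PRDX1 alone (0, blue line) and RANKL alone (1, red line) on the log2(FPKM + 1) scale for the called members (points, red if higher with RANKL and blue if higher with PRDX1) of 21 gene lists, with the number of called members after each name and a black bar at the median. Interferon-stimulated genes gather near 0 (median 0.01) and NF-kB genes near 1 (median 0.87), while the median of cell cycle genes is 0.49.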

How the data were processed

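Adherent bone marrow macrophages were profiled by paired-end RNA-seq in 8 libraries, 2 per group. According to the methods and the labels, the authors aligned reads to mm10 with HISAT2 and counted exons with HOMER on both strands, 1 transcript per gene, so overlapping and antisense genes can share reads. The deposited values are FPKM, and dividing out length and library total gave whole reads within 0.2 reads. DESeq2 is also named in the submitters' processing notes, and its output was not used here. FPKM were taken as log2(FPKM + 1), and genes with a mean of at least 0.5 FPKM were fitted with limma 3.58.1 in R 4.3.3 (means of 4 groups, 8 libraries, trended variance, 4 residual degrees of freedom). A call needed a Benjamini-Hochberg adjusted p under 0.05 and a 1.5-fold difference. Fold changes on this scale understate those of low genes. The combined treatment and M-CSF alone were each compared with the midpoint of the ligand groups. The limma test was checked on simulated data.

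Named genes were those the study names, the 15 largest differences in each direction, up to 5 called and 2 least changed members of each list, the 5 largest shifts of the combined treatment toward each ligand and the 8 largest alike changes. Other list members named beside them were chosen after their values were seen. The members and gene lists were chosen with earlier results of these data known. Libraries of a group differed by more than sampling noise. Alternatives were the pseudocount, filters, scalings, the 4 ligand libraries alone, a replicate block, voom on recovered reads and each library left out. Promoters came from RefSeq (GRCm38.p6), matched by symbol and start. A few genes that the rule names are not reported here.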

Additional observations from a re-analysis of the deposited data

How the results depend on the processing

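The direction and balance of the calls were compared over 16 other settings. Genes higher and lower with RANKL numbered 1680 and 1255 in the 4 ligand libraries alone, 2016 and 1517 with a pseudocount of 0.1, 1721 and 1254 without a filter, 1475 and 1075 at a minimum of 2 FPKM, 2181 and 1498 with voom on recovered reads, and 1671 to 1726 and 1239 to 1303 when 1 library was left out. With the replicate block the counts were 1675 and 1255. Deviations of libraries with the same replicate number correlated at 0.0085 to 0.096 between groups. These values show little shared replicate effect, but they cannot show whether libraries with the same number were paired. Genes of the combined treatment on the RANKL side numbered 131 with a pseudocount of 0.1 and 158 with voom, and on the PRDX1 side 219 with voom. By adjusted p alone they ranged from 185 to 410 and from 295 to 641 when 1 library was left out, lowest without PRDX1 + RANKL replicate 2. The cause was not tested.

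The median log2 difference changed sign without a filter for costimulation (0.16) and endothelial markers (-0.19), for precursor fusion under quantile normalization (-0.082) and upper quartile scaling (-0.10), and for RANK and ITAM signaling with voom (0.0095). With 1 library left out precursor fusion ranged from -0.0064 to 0.060 and RANK and ITAM signaling from -0.069 to 0.066. Among the 199 genes named, Lyz2 was at 0.20 with quantile normalization, Rela at -0.049 and, with upper quartile scaling, -0.059, and Tcirg1 at -0.053 with upper quartile scaling. With 1 library left out Rela ranged from -0.022 to 0.13, Tcirg1 from -0.013 to 0.14, Clec4a1 from -0.049 to 0.0058, Fdps from -0.093 to 0.034 and Snora41 from -0.22 to 0.14. Over all settings 14 calls of named genes were lost and 4 were gained, those of Il1rl1 and Cd68, each under 2 settings. The scalings took the calls of B2m, Ftl1, Tfb2m and Spi1, with Ftl1 at -0.20 after quantile normalization. Leaving out PRDX1 replicate 1 took that of Tec, PRDX1 replicate 2 those of Elane and Tfb2m, RANKL replicate 1 those of Bcl6, Col1a1, Nfkbiz and Tfb2m, and RANKL replicate 2 those of Elane and Tm7sf2. Genes with few reads, such as Dmkn and Oscar with PRDX1, have differences set by the pseudocount.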

Other observations

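Other gene groups showed no common direction between the ligands. Of 12 BCL2 family genes tested, 1 was higher with RANKL and 4 with PRDX1. Among 10 SOCS, DUSP and Zfp36 feedback genes, which dampen kinase and cytokine signals, 3 were higher with RANKL and 4 with PRDX1. Of 15 genes of serine synthesis and the ATF4 stress response 2 were higher with RANKL and 4 with PRDX1, and 6 were above M-CSF alone with PRDX1. Glycolysis had 4 of 19 in each direction as deposited, but 1 and 4 after quantile normalization and 0 and 4 after upper quartile scaling. Of 11 MHC class II genes 1 was higher with RANKL and 2 with PRDX1, and of 8 costimulation genes 2 were higher with each. The single tested endothelial and dendritic cell markers were not called.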
